A study of Mus musculus with 56 samples.

Results

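PU.1 peaks in LTR retrotransposons of mouse bone marrow-derived macrophages (BMDMs) were examined. A member was a region in which peaks of the PU.1 ChIP-seq lists, annotated by the authors to an LTR element, overlapped by at least 1 bp in 2 or more of the 4 lists. There were 5404 such regions, lying in 5401 of the 67996 PU.1 regions found in 2 or more lists (7.94%). The lists came from 2 untreated and 2 IL-4-treated samples (20 ng/ml for 1 hr) of wild-type cells, taken from C57BL/6 mice of 8 to 12 weeks and differentiated for 6 days with L929 supernatant. The study describes ChIP-seq replicates as independent biological ones, but the labels do not say whether they came from separate animals or cultures, so the p-values may cover only technical spread between these samples. The same cells and treatments were profiled for p300, HDAC1, HDAC2, HDAC3, and H3K27Ac (4 samples each). In a second experiment p65 was profiled in 8 samples, untreated, treated with LPS (100 ng/ml) for 1 hr, pretreated with IL-4 for 24 hr, or given both.

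LTR retrotransposons are remnants of retroviruses that copied themselves into the genome. Their long terminal repeats carry binding sites for transcription factors, and most copies have lost the internal genes and persist as a single LTR. PU.1 is an ETS family factor that marks macrophage enhancers and reads a GGAA core, p300 is an acetyltransferase found at active enhancers, H3K27Ac is a mark of active enhancers and promoters, and HDAC1, HDAC2, and HDAC3 remove acetyl groups. IL-4 signals through STAT6, which binds the letters TTC and GAA spaced by a few bases.

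The PU.1 lists held 65055 to 71027 peaks each, the p300 lists 44787 in untreated replicate 1 and 66710 to 69360 in the others, and the HDAC lists 8440 (HDAC3, untreated replicate 2) to 30511. The score of a peak is the MACS2 value on the −log10 scale, which grows with read depth as well as with enrichment, and the depth of the libraries is unknown. Of 8 macrophage marker genes, 6 had a PU.1 region, with top mean scores of 60.1 to 129, and 4 had H3K27Ac in all 4 lists. None of 3 T cell and 3 B cell markers had a PU.1 region, although 1 T cell marker had H3K27Ac in all 4 lists, and 2 of 4 neutrophil, 1 of 2 erythroid, and 2 of 3 fibroblast markers had a PU.1 region. Their top mean scores were 7.78 to 42.8, 79.3, and 9.78 to 14.3, so the erythroid marker lay within the macrophage range. H3K27Ac was in all 4 lists at 2 neutrophil, 1 erythroid, and 0 fibroblast markers. The labels and one part of the study's methods give the HDAC3 antibody the catalogue number of the H3K27Ac antibody, whereas the study's list of reagents gives it a number of its own, and which was used was not tested.

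The share of PU.1 peaks annotated to LTR elements was 7.93% and 7.88% in the untreated samples and 7.87% and 7.79% in the IL-4 samples. The means were 7.91% ± 0.04 untreated and 7.83% ± 0.06 after IL-4 (SD, n = 2 each), and the exact two-sided permutation test gave p = 0.33, the smallest that 2 against 2 samples allow. Counting in any list, 9576 LTR regions were found, of which 4172 lay in 1 list only and were left out. Their median highest score was 4.42, against 7.63 for the 1578 regions in 2 lists, 11.5 for the 1313 in 3 lists, and 24.4 for the 2513 in all 4 lists.

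The members carried 440 repeat names of 10 families. ERVL-MaLR, an old group of mammalian LTRs, held 2874 members (53.2%), ERVK, which includes the IAP elements, 1521 (28.1%), ERVL 550 (10.2%), and ERV1 420 (7.77%). The 12 commonest names held 40.7% of the members, led by MTD (507), MTC (335), ORR1E (285), RLTR45 (175), ORR1F (149), ORR1D2 (144), and RLTR13B1 (137). The other 5 of these 12 were MTB_Mm (120), MTEa (94), MTE2a (87), ORR1B1 (85), and RLTR28 (81). Internal parts of elements accounted for 601 members, and 65 lay on chromosome Y. Members had a median width of 340 bp, and 3366 were intergenic and 2032 intronic.

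The sequence under the peaks was read from the RefSeq GRCm38 genome, the assembly that mm10 names. In a window of 200 bp around the peak centre, the PU.1 core GAGGAAGT was present on either strand in 21.6% of members, 17.5% of PU.1 regions in introns and intergenic DNA without a repeat annotation (35610, called non-repeat regions here), and 67.4% of PU.1 regions in LINE elements. The bare ETS core GGAA was present in 98.4% of members and 98.5% of non-repeat regions. The core was found in 42.5% of ORR1E, 50% of ORR1D2, and 71.4% of ORR1B1 members, and in 8.88% of MTD members. ORR1E and ORR1D2 had the most core-holding members (121 and 72), and ORR1B1 and RLTR28 were tied at 60, with a share of 75% in RLTR28. Windows of the 4 core-holding members with the highest mean score of ORR1E, ORR1D2, and ORR1B1 (taken before RLTR28 by name order) are shown to let the surroundings of the core be compared, with the core in capitals.
ORR1E at Atp10a (chr7:58859147-58859186, minus strand): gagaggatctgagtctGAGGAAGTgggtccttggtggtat
ORR1E at Nipbl (chr15:8512109-8512148, minus strand): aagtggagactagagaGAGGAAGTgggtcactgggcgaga
ORR1E at AI467606 (chr7:127080192-127080231, plus strand): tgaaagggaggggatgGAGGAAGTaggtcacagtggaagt
ORR1E at Npr3 (chr15:11716425-11716464, minus strand): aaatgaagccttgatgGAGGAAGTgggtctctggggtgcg
ORR1D2 at Klhl5 (chr5:65120063-65120102, plus strand): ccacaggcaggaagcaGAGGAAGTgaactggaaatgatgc
ORR1D2 at Tns3 (chr11:8760126-8760165, plus strand): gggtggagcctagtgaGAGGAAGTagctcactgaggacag
ORR1D2 at Slc38a11 (chr2:65391536-65391575, minus strand): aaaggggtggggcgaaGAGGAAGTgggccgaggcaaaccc
ORR1D2 at Trp53i11 (chr2:93162137-93162176, minus strand): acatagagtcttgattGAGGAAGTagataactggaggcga
ORR1B1 at H2-D1 (chr17:35259290-35259329, minus strand): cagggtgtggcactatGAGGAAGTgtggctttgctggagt
ORR1B1 at Ccdc101 (chr7:126655948-126655987, plus strand): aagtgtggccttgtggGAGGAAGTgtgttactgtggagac
ORR1B1 at Tmem107 (chr11:69079047-69079086, minus strand): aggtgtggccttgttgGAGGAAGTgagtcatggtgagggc
ORR1B1 at Insig2 (chr1:121334450-121334489, plus strand): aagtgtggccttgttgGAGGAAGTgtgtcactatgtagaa

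Several repeat names carried an ETS word of their own. The commonest 9 letters around GGAA were counted by name, a survey added after the data were seen. In MTD the word GCAGGAACT was held by 27% of members, compared to 0.537% of all other PU.1 regions. In RLTR45 the word AGGGGAAGT was held by 90.9% (2.73% elsewhere), in RLTR13B1 ACAGGAATT by 61.3% (0.2%), and in RLTR6_Mm TCTGGAACA by 97.1% (0.228%). MTC and MTB_Mm shared ACAGGAACT, in 42.1% and 45.8% of members (1.06% elsewhere). The highest-scoring members with the word are shown for MTD, RLTR45, RLTR13B1, and RLTR6_Mm, with the word in capitals, so that copies of one name can be set side by side.
MTD at Ube2n (chr10:95530660-95530700, plus strand): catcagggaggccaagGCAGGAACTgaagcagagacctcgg
MTD at Asap1 (chr15:64447447-64447487, minus strand): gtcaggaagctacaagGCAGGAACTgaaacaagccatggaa
MTD at Mrgprf (chr7:145293513-145293553, plus strand): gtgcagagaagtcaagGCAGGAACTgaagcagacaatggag
RLTR45 at Pfkp (chr13:6889558-6889598, plus strand): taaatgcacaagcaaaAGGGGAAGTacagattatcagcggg
RLTR45 at Etohi1 (chr2:178020968-178021008, minus strand): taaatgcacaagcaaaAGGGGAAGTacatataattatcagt
RLTR45 at Msh6 (chr17:87972197-87972237, minus strand): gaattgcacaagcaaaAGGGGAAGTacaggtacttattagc
RLTR13B1 at Klf7 (chr1:64249832-64249872, plus strand): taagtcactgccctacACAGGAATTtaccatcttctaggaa
RLTR13B1 at Abhd17c (chr7:84191020-84191060, minus strand): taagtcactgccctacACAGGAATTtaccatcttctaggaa
RLTR13B1 at Dyrk1b (chr7:28215635-28215675, plus strand): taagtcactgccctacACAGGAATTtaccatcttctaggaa
RLTR6_Mm at Dhx40 (chr11:86816274-86816314, minus strand): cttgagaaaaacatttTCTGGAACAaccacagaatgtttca
RLTR6_Mm at BC021614 (chr19:4066248-4066288, minus strand): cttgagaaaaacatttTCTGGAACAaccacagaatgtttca

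The same 41 bases were read at all 3 RLTR13B1 copies. To see how many copies a read could come from, 8 pieces of 32 bases were cut from each window and counted in the genome. All 8 pieces were unique in 61.7% of members and none in 7.68%, compared to 91.0% and 1.40% of non-repeat regions and 16.9% and 70.7% of LINE regions. The mean share of unique pieces was 96.3% for MTD and 98.6% for ORR1E but 26.4% for RLTR45, 17.3% for RLTR13B1, and 4.41% for RLTR6_Mm. How reads that fit several places were handled is not given in the sources used here.

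The highest PU.1 score at an LTR element was at IAPLTR3-int 54.2 kb upstream of Slc22a27 (chr19:8019746-8020691), with scores of 282 and 137 untreated and 311 and 245 after IL-4. MTC in an intron near Jazf1 (chr6:52842420-52843118) scored 263 and 176 untreated and 235 and 230 after IL-4. ERVB2_1-I_MM-int near Pydc3 (chr1:173694208-173694843) scored 214 and 133, then 264 and 225. Untreated replicate 2 was the lowest sample at all of these 3 regions, and p300 and all 3 HDACs had a peak in all 4 of their lists at each. MLT1C near Serpinb8 scored 177, 137, 198, and 197 in the order untreated 1 and 2, IL-4 1 and 2, and RMER15 near Tmem176b scored 173, 106, 215, and 193. The adjusted p of the 5 changes ran from 0.707 to 0.994 (limma), so none passed the test. Of these 5 windows, 1 held the PU.1 core, and the GGAA nearest the peak centre is shown in capitals for 3 of the others.
MTC at Jazf1 (chr6:52842736-52842775, minus strand): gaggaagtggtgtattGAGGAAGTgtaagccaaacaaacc
IAPLTR3-int at Slc22a27 (chr19:8020129-8020168, plus strand): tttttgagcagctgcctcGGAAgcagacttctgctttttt
MLT1C at Serpinb8 (chr1:107583054-107583093, plus strand): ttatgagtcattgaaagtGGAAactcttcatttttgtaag
RMER15 at Tmem176b (chr6:48832573-48832612, minus strand): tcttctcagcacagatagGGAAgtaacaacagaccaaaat

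p300 was the commonest partner of PU.1 at LTR elements. A p300 peak was found in 2 or more of the 4 lists at 72.4% of members, HDAC2 at 32.3%, HDAC1 at 27.6%, HDAC3 at 16.2%, and H3K27Ac at 33.8%. p300 without any of the other 4 was the commonest combination (27.1%), none of the 5 came next (26.5%), and all 5 together were found at 9.91%.

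LTR regions held fewer p300, HDAC, and H3K27Ac peaks than non-repeat regions and more than LINE regions, and both gaps were smaller among regions with unique sequence, as given after the plot of shares by class. Among regions with the highest PU.1 scores, LINE regions held more HDAC peaks than LTR regions, as also given there. In the untreated lists p300 was at 52.9% and 69.6% of LTR regions, compared to 60.5% and 76.4% of non-repeat and 11.1% and 14.8% of LINE regions. After IL-4 it was at 71.0% and 72.5% of LTR, 77.8% and 78.3% of non-repeat, and 15.05% and 15.2% of LINE regions. Paired over the 4 lists, LTR minus non-repeat was −6.75 ± 0.72 percentage points for p300, −10.9 ± 0.62 for HDAC1, −9.53 ± 1.24 for HDAC2, −7.59 ± 1.299 for HDAC3, and −6.64 ± 0.75 for H3K27Ac (SD, n = 4 lists). All 4 lists gave the same direction for each antibody, and the exact two-sided sign-flip permutation test gave p = 0.13, the smallest that 4 lists allow. The difference from SINE regions was smaller, at 4.79 ± 0.84 points for p300 and −0.61 ± 0.87 for HDAC1.

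**Figure D1:**
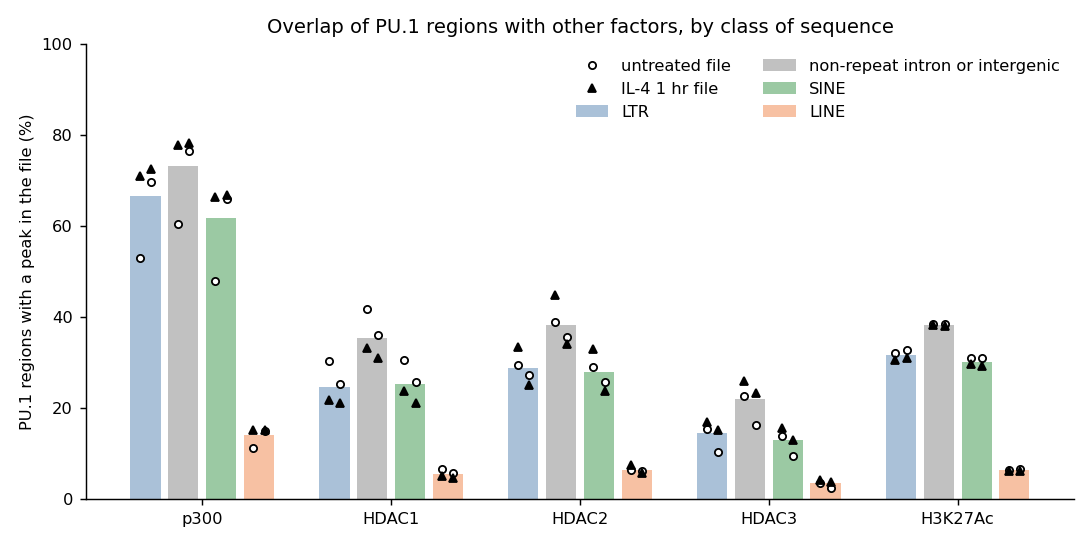
Share of PU.1 regions with a peak of each antibody (vertical axis, percent), by class of sequence, with bars for the mean of 4 lists, open circles for untreated and filled triangles for IL-4 lists. LTR regions sit below non-repeat regions for every antibody, and LINE regions sit lowest, with p300 at 11.1% to 15.2%.

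The gaps to non-repeat and LINE regions moved with sequence uniqueness and PU.1 score. Among regions with only unique pieces, p300 was at 81.0% of LTR and 80.4% of non-repeat regions, HDAC1 at 35.6% and 41.1%, HDAC2 at 40.8% and 44.1%, HDAC3 at 20.9% and 25.6%, and H3K27Ac at 41.1% and 42.1%. LINE regions with only unique pieces (2669) had p300 at 75.7%, HDAC1 at 33.8%, HDAC2 at 37.1%, HDAC3 at 20.3%, and H3K27Ac at 35.1%, so most of the gap between LTR and LINE regions was not seen among them. Within the highest of 3 classes of PU.1 score, p300 was at 94.4% of LTR and 94.8% of non-repeat regions, whereas HDAC1 was at 54.3% and 67.5%. LINE regions of that class had p300 at 91.3% and H3K27Ac at 49.2% (53.0% of LTR regions). For the HDACs the order was reversed, with HDAC1 at 58.2%, HDAC2 at 63.9%, and HDAC3 at 36.8% of LINE regions. LTR regions of that class had HDAC2 at 62.3% and HDAC3 at 34.7%. Against all other PU.1 regions, LINE regions included, p300 at LTR regions was 11.4 points higher, and the difference became −3.96 points without LINE regions. The subsets of unique pieces and without LINE regions were chosen after the data were seen, and these differences were not tested.

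Repeat names differed widely in their partners. Among the 53 names with 20 or more members, the share with p300 ran from 0% (ETnERV3-int, 23 members) to 100% (RLTR6_Mm, 34). ORR1F had p300 at 89.9%, any HDAC at 46.3%, and H3K27Ac at 40.3% of members, and MTD had 78.1%, 37.9%, and 37.1%. RLTR13B1 had p300 in 2 or more lists at 78.1%, any HDAC at 4.38%, and H3K27Ac at 6.57%, but its p300 peaks came mainly from the IL-4 lists (10.9% and 25.5% untreated, 83.9% and 83.2% after IL-4). RLTR45, with more members than RLTR13B1, had p300 at 14.3%, any HDAC at 3.43%, and H3K27Ac at 5.14%, and RLTR28 had p300 at 43.8%. The 12 names with under 50% of pieces unique (730 members) had any HDAC at 0% to 20.6% of members, and the 41 other names (3044 members) at 18.8% to 70.4%. The part of uniqueness in these shares was not tested.

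**Figure D2:**
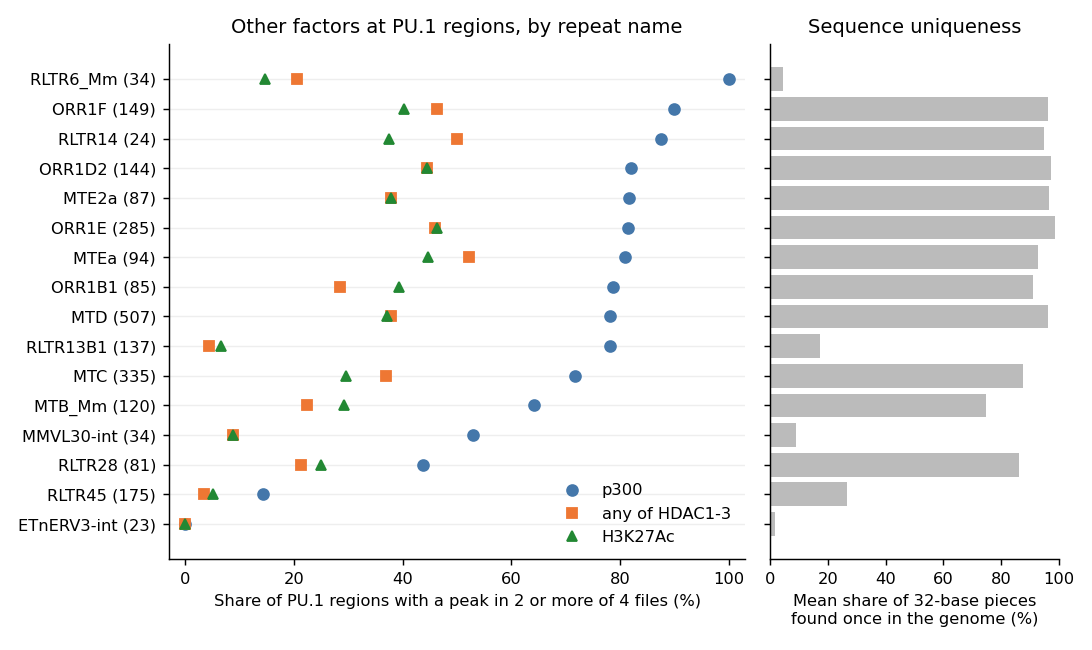
Share of members with a p300, HDAC1-3, or H3K27Ac peak in 2 or more of 4 lists (left, percent) and mean share of 32-base pieces found once in the genome (right, percent), for 16 repeat names with the number of members in brackets. RLTR6_Mm and RLTR13B1 combine much p300 with few HDAC peaks and few unique pieces.

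Few LTR elements had a PU.1 change after IL-4 that passed the adjusted test. Log2 scores were centred on regions with a peak in all 4 samples, missing peaks were set to the lowest score (1.3), and all 67996 regions were fitted with limma. The median change was −0.01 (log2) at LTR regions and −0.05 at all regions. At an unadjusted p of at most 0.05, 326 of 5401 LTR regions were higher and 268 lower after IL-4 (6.04% and 4.96%), against 5.88% and 4.71% of all regions. After Benjamini-Hochberg adjustment 3 were higher and none lower, against 0.0735% of all regions. Without centring, the unadjusted split was 528 higher and 166 lower, and with only the upper 50% of peaks it was 156 higher and 218 lower. The median change of all regions was 0.28 and −0.11 in these settings, so the shifts were not particular to LTR regions.

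The 3 regions that passed the adjusted test rose. An MTD element 5.60 kb upstream of Als2cr12 (chr1:58700631-58701759) scored 8.01 and 3.03 untreated and 86.0 and 58.6 after IL-4, a log2 change of 3.51 ± 0.45 (SE, adjusted p = 0.0250, limma). An RLTR25B element 9.89 kb from the start of Ang2, an angiogenin ribonuclease gene (chr14:51185648-51186415), scored 8.66 in untreated replicate 1, had no peak in replicate 2, and scored 111 and 129 after IL-4. An MTD element in an intron near Mir5131 (chr14:45632710-45633128) had no untreated peak and scored 66.2 and 51.4 after IL-4. At all 3 regions p300 rose as well, by 2.46, 3.77, and 5.64 (log2), and H3K27Ac by 2.06, 4.01, and 2.39, each past the adjusted test.

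Other large increases among regions with a peak in all 4 samples did not pass adjustment. RLTR48B near 0610039K10Rik went from 1.99 and 4.91 to 58.8 and 64.9, MLT1O 12.1 kb upstream of Jak2, a kinase of the IL-4 receptor pathway, from 5.87 and 3.20 to 60.9 and 35.9, and MLTR25A near Ear14 from 5.76 and 8.13 to 69.1 and 57.3. Their adjusted p were 0.0539, 0.0588, and 0.0522 (limma). ORR1B2 in an intron of Pcca went from 2.66 and 2.37 to 31.5 and 12.6 (adjusted p = 0.386, limma). The untreated and IL-4 scores of these 4 regions did not overlap, as the rule for naming them required, and among all PU.1 regions with a peak in all 4 samples 19.2% were higher and 20.1% lower without overlap.

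Decreases were smaller. The largest among regions with a peak in all 4 samples was at MLT1F in an intron near Hdac9, from 7.50 and 13.4 to 1.68 and 3.5, a log2 change of −2.38 ± 0.98 (SE, adjusted p = 0.453, limma). MTC near Cul3 went from 19.5 and 26.4 to 9.08 and 5.01, and MTEb in an intron near Pfkfb3 from 31.2 and 14.6 to 22.6 and 1.78, where the groups overlap on the raw scale. RMER10B near Swap70 went from 8.69 and 7.31 to 3.49 and 1.61, and RLTR45 near Gstm2 from 10.1 and 5.15 to 2.14 and 2.18. Peaks in both IL-4 samples and neither untreated sample were found at 296 members (5.48%, against 5.68% of other PU.1 regions), and the reverse at 186 (3.44%, against 3.69%). The IL-4-only scores reached 66.2 and the untreated-only scores 21.9.

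LTR elements that hold a STAT6 motif had a higher median PU.1 change than those that do not. The word, TTC and GAA separated by 4 bases on either strand, was present in the window of 309 members (5.72%), against 8.58% of non-repeat and 1.82% of LINE regions. Their median centred log2 score was −1.08 and −1.08 in the untreated samples and −0.33 and −0.34 after IL-4, so the groups did not overlap. For the 5092 members without the motif it was −0.66, −0.63, −0.69, and −0.68. The median change was 0.86 with and −0.04 without the motif, and 87 with the motif were higher and 4 lower at an unadjusted p of at most 0.05 (28.2% higher, against 4.69% of those without it and 5.88% of all regions). Other PU.1 regions with the motif had a median change of 0.74 and those without it −0.09.

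The other antibodies had higher median changes at these elements too. For p300 the median change was 1.37 with and −0.01 without the motif, for HDAC1 0.47 and −0.14, for HDAC2 0.71 and −0.08, for HDAC3 1.21 and 0.09, and for H3K27Ac 0.94 and −0.21. p300 was called higher at 155 and lower at 2 of 261 p300 regions with the motif, against 13.6% higher and 7.44% lower of all p300 regions, and H3K27Ac higher at 89 and lower at 9 of 122, against 20.7% and 22.8%. A p300 or H3K27Ac region that met members of both kinds was counted in both. Other PU.1 regions with the motif had a median p300 change of 1.32, with 56.4% called higher and 1.65% lower. Their median change was 0.42 for HDAC1 and 0.63 for HDAC2, and that of HDAC3 was positive too. The rises of p300 and the HDACs with the motif were therefore not particular to LTR elements. The share of motif-holding members with a p300 peak was 50.2% and 66.0% untreated and 85.8% and 84.5% after IL-4. Regions with no untreated p300 peak entered the fit through the IL-4 lists, with missing peaks set to the lowest score. Their part in the p300 change was not tested. Among members with only unique pieces the PU.1 change with the motif was 0.88. The difference in PU.1 change, 0.90, fell to 0.43 with the lowest score set 4 times as high, for missing and weaker peaks alike. It fell to 0.45 in regions with a peak in all 4 samples and to 0.30 when the window was 600 bp wide. It was 1.07 in a window of 100 bp and 0.31 for the same letters spaced by 3 bases, and these comparisons were added after the data were seen.

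**Figure D3:**
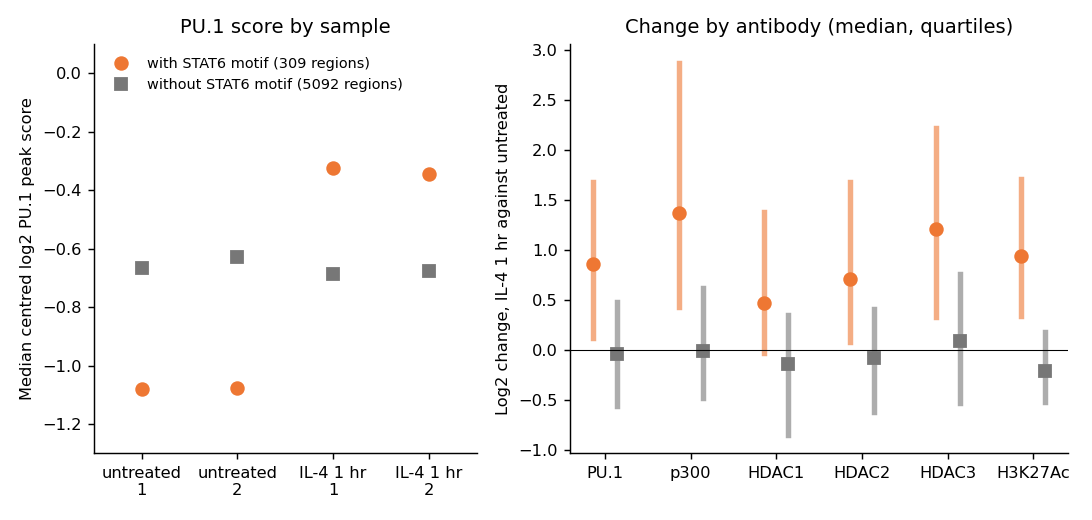
Median centred log2 PU.1 score of LTR regions in each sample (left) and log2 change after IL-4 for 6 antibodies (right, points for medians and bars for the lower and upper quartiles), with and without the STAT6 motif. Regions with the motif move from −1.08 to about −0.33 and have medians above 0 for all 6 antibodies.

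The motif is shown in capitals for the high-scoring and most increased regions that hold it, and for the highest-scoring copies of RLTR17 and RMER15. RLTR17 held it in 52.2% of 23 members and the AP-1 word TGANTCA in 65.2%, and RMER15 in 11.7% and 27.3% of 77 members, against 10.5% of all members for AP-1. All 3 IL-4-only regions with the highest scores, at MTD near Mir5131, MLT1B near 4930413G21Rik, and MLTR25A near Ang6, held the motif, and none of the 3 highest untreated-only regions did. The largest increases with a peak in all 4 samples did not hold it. These were RLTR48B near 0610039K10Rik (log2 change 3.97) and MTD near Als2cr12 (3.51).
ERVB2_1-I_MM-int at Pydc3 (chr1:173694371-173694430, plus strand): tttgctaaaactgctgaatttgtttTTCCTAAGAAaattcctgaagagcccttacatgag
MLT1O at Jak2 (chr19:29239698-29239757, plus strand): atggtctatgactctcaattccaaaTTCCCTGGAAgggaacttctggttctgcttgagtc
MLTR25A at Ear14 (chr14:51219263-51219322, plus strand): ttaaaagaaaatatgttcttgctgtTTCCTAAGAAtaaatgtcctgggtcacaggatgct
ORR1B2 at Pcca (chr14:122644373-122644432, plus strand): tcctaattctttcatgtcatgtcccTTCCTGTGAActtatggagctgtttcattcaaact
RLTR17 at Olfr267 (chr4:58718481-58718530, plus strand): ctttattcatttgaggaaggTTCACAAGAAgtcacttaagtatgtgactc
RLTR17 at Clec4b2 (chr6:123170370-123170419, plus strand): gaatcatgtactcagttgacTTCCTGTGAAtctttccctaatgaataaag
RLTR17 at Ugt1a9 (chr1:88077336-88077385, plus strand): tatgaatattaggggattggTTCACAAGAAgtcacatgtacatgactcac
RLTR17 at Mir511 (chr2:14323345-14323394, plus strand): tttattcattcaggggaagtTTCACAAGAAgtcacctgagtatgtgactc
RMER15 at Inpp5a (chr7:139350871-139350920, plus strand): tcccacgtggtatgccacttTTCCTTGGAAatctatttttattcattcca
RMER15 at Yy1 (chr12:108797068-108797117, plus strand): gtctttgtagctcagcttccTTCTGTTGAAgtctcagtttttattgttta
RMER15 at Rnf152 (chr1:105507291-105507340, plus strand): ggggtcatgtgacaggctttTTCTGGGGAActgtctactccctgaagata

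The median PU.1 change was 0.34 for RLTR17 and 0.14 for RMER15, with 5 of 23 and 8 of 77 members higher and 0 and 2 lower at an unadjusted p of at most 0.05, against 5.88% and 4.71% of all regions. Other names held the motif more often than RMER15: ETnERV3-int (39.1%), MLT1F1 (33.3%), ORR1C1 (16.2%), MLTR14 (13.2%), and RLTR14 (12.5%). Their median PU.1 changes were 0.32, 0.19, −0.09, −0.09, and 1.46. At ETnERV3-int 0 of 23 members were higher or lower at that p.

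RLTR14, an ERV1 name with 24 members, had the highest median change of the 53 names, 1.46. PU.1 was higher after IL-4 without overlap at 16 copies and lower at 1, against 20.5% and 19.1% of all regions, and 10 copies were higher and none lower at an unadjusted p of at most 0.05. A total of 11 copies had a peak in both IL-4 samples and in neither untreated sample, and none the reverse. These 11 copies became members through the IL-4 lists, with untreated values set to the lowest score. A rise without overlap at them was therefore largely set in advance, and 9 copies had a peak in all 4 samples. The copy near Gnaq scored 51.1 and 56.1 untreated and 98.8 and 118 after IL-4, and that 5.24 kb upstream of Ear5, an eosinophil-associated ribonuclease gene, 59.1 and 42.9, then 114 and 81.7. The copy near Ubl3 had no untreated peak and scored 29.0 and 42.5 after IL-4. The copies near Xpo6, Acad9, and Arfgef1 had log2 changes below 0, of −0.94, −0.70, and −0.54 (adjusted p = 0.506, 0.737, and 0.936, limma). No copy passed the adjusted test for PU.1. RLTR14 was named for its change, so these values are a description.

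**Figure D4:**
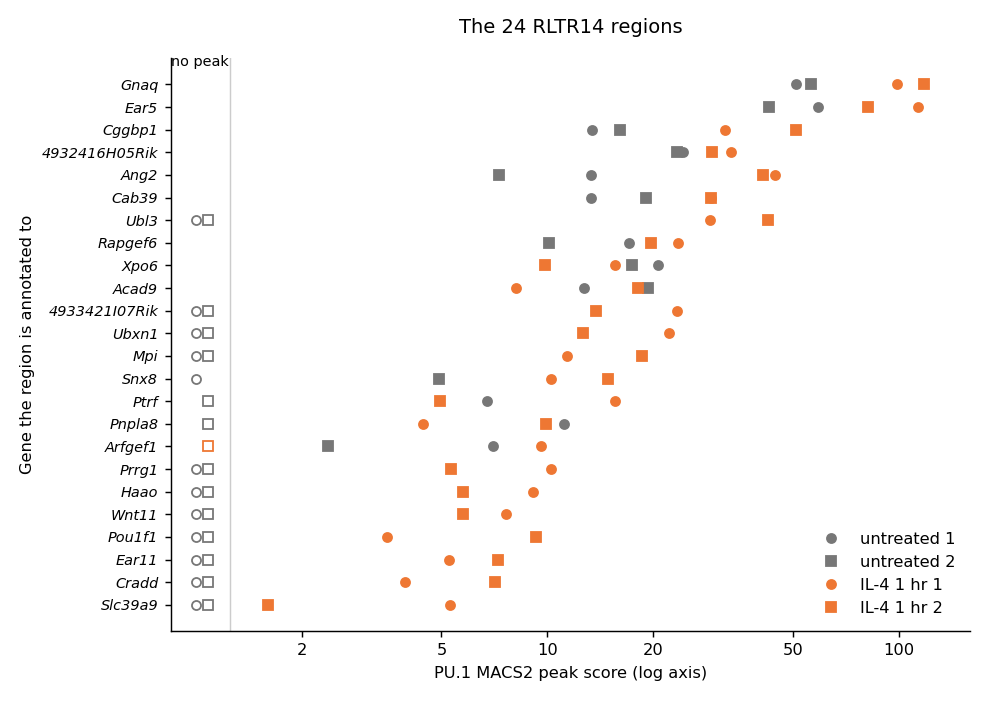
PU.1 score of the 24 RLTR14 regions in each sample (horizontal log axis, open symbols at the left for no peak), ordered by mean score and labelled with the gene each is annotated to. In 11 regions both untreated samples lack a peak that both IL-4 samples hold.

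p300 was called higher at 13 and lower at 1 of 21 RLTR14 regions with a p300 value, against 13.6% and 7.44% of all p300 regions, and a p300 peak was at 41.7% and 66.7% of copies untreated and at 91.7% and 83.3% after IL-4. The STAT6 motif was in 12.5% of copies. Copies lay near Ear5, Ang2, and Ear11 on chromosome 14, a cluster of ribonuclease genes that also held the RLTR25B region near Ang2 and the MLTR25A region near Ear14, so these regions share a neighbourhood.

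At the ERVK names RLTR13B1 and RLTR45-int p300 peaks were at far more copies after IL-4 than before. These names were singled out after their values were seen. At RLTR13B1 p300 was at 10.9% and 25.5% of 137 members untreated and at 83.9% and 83.2% after IL-4. At RLTR45-int it was at 2.94% and 5.88% of 34 members, then at 82.4% and 88.2%. The groups did not overlap for either name, whereas over all members p300 was at 52.9% and 69.6%, then at 71.0% and 72.5%. The median p300 change was 2.12 and 2.51 (log2), with 52 of 107 and 12 of 28 regions called higher and none lower, against 13.6% and 7.44% of all p300 regions. Most of these regions had no untreated p300 peak and entered the fit through the IL-4 lists, with missing peaks set to the lowest score. The changes therefore largely restate the shares above. Median p300 scores after IL-4 were 14.6 and 12.5 at RLTR13B1 and 13.2 and 12.5 at RLTR45-int, against 30.6 and 30.1 over all members. H3K27Ac peaks were at 5.84% to 6.57% of RLTR13B1 members in the 4 lists, and of the 9 H3K27Ac regions there 6 were called higher and none lower (median change 0.63), against 20.7% and 22.8% of all H3K27Ac regions. The median PU.1 change was 0.45 and 0.17, and both names had the word ACAGGAATT, in 61.3% and 85.3% of members. The mean share of unique pieces was 17.3% and 14.3%, so the copies share sequence and are not independent readings, and the STAT6 motif was in 0.73% and 0% of members. RLTR13C2, another ERVK name with 25 members, had p300 at 12% and 36% untreated and at 60% in both IL-4 lists. Its median p300 change was 2.15, with 9 of 14 regions called higher and none lower, and its median PU.1 change was 0.74.

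MMVL30-int, the internal part of an ERV1 element, had the lowest median PU.1 change, −1.02 over 34 members, with 7 lower and none higher at an unadjusted p of at most 0.05, against 4.71% and 5.88% of all regions. Only 8.82% of MMVL30-int members had a peak in all 4 samples, and their median mean score was 3.37. Peaks in both untreated and neither IL-4 sample were found at 9 of them. This change therefore rests largely on missing peaks set to the lowest score. RLTR45 had a median change of −0.30, with 15 of 175 lower and 1 higher, and 27.4% of its members had a peak in all 4 samples. Members with no unique piece (415) had a median change of −0.32, and those with only unique pieces 0.02, and LINE regions had −0.31. The part of uniqueness in these changes was not tested.

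Over all LTR regions, p300 was called higher at 569 and lower at 307 of 3902 regions, against 13.6% and 7.44% of all p300 regions (21.0% in all). The number of LTR regions called changed with the sample left out, and the shares of all p300 regions called in those fits are not given. The LTR median change minus that of all p300 regions then ran from −0.096 to −0.058. H3K27Ac was called higher at 369 and lower at 563 of 1822, with a median change of −0.18, against 43.4% of all regions called and a median of −0.02. HDAC3 was called higher at 8 and lower at 1 of 875, against 1.22% and 0.103% of all regions, and 111 were higher and 61 lower at an unadjusted p of at most 0.05, against 12.6% and 6.03% of all regions (18.6% in either direction). HDAC2 was called higher at 1 of 1742 and lower at none, against 0.00404%, with 99 higher and 97 lower at an unadjusted p of at most 0.05, against 6.34% and 5.06%. HDAC1 had no call among 1491 in limma, against 0.0% of all regions, with 74 higher and 150 lower at an unadjusted p of at most 0.05, against 4.65% and 8.48%. Without centring p300 had no call and an unadjusted split of 490 higher and 13 lower, HDAC3 no call and 157 higher and 27 lower, and HDAC1 47 higher and 234 lower. The median change of all regions was then 0.78 for p300, 0.37 for HDAC3, and −0.42 for HDAC1. Untreated replicate 1 of p300 had the fewest peaks.

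LTR regions were 8.39% of the PU.1 regions at IL-4 target genes, 10.6% of those at inflammatory genes, and 6.16% of those at macrophage lineage genes. The share was 5.17% at interferon response genes and 4.55% at genes of TRIM28 and KRAB silencing and of LTR restriction, against 7.94% of all PU.1 regions. Of 30 alternative activation and IL-4 target genes, 13 had an LTR region (25 regions), with 11 higher and 3 lower without overlap, against 20.5% and 19.1% of all regions, and a median change of 0.19. At MTE2a 30.0 kb upstream of Pparg, a lipid-sensing nuclear receptor, PU.1 scored 157 and 83.4 untreated and 144 and 111 after IL-4. At MTC 7.75 kb upstream of Stat6 it scored 57.7 and 24.1, then 24.8 and 42.8, and at LTR16C in an intron of Mrc1, a mannose receptor, 35.4 and 15.8, then 24.7 and 36.8. The groups overlapped at all 3.

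Of 30 inflammatory genes, 18 had an LTR region (31 regions), with 3 higher and 6 lower without overlap (20.5% and 19.1% of all regions) and a median change of 0.02. The highest scores were 91.1, 56.2, 76.0, and 79.7 at MMERVK9C_I-int 33.6 kb upstream of Tlr2, a receptor for bacterial lipoproteins. RMER16_Mm near Il6, an inflammatory cytokine, scored 25.6, 28.7, 41.4, and 37.3, and RLTR20A3_MM 14.2 kb upstream of Tlr2 40.5, 18.7, 38.6, and 27.6. Of 25 macrophage lineage genes, 9 had 17 LTR regions, 3 higher and 7 lower without overlap (20.5% and 19.1% of all regions), with a median change of −0.61. They included MLT1L upstream of Runx1, a blood cell regulator (53.1, 35.9, 65.3, and 61.9), MTEb near Maf (57.4, 34.1, 68.0, and 50.2), and MTD upstream of Lyz1, a lysozyme gene (43.5, 17.4, 21.2, and 24.4). None of the changes at these 6 regions passed the test (adjusted p from 0.618 to 0.967, limma).

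Of 30 interferon response genes, 4 had 6 LTR regions, the highest at MER57E2 upstream of Ddx58, an RNA sensor (22.1, 15.97, 35.7, and 34.4). BGLII in an intron of the same gene scored 21.9, 18.2, 34.1, and 20.6. Of 15 genes of TRIM28 and KRAB silencing and of LTR restriction, 2 had an LTR region, RMER6BA near Apobec3, a deaminase that restricts retroviruses (27.5, 6.22, 13.5, and 10.6), and RLTR49 near Morc3 (8.4, 10.1, 10.02, and 10.6).

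p65, the RELA subunit of NF-κB, was found at more LTR regions after LPS. A p65 peak was at 10.1% and 9.87% of members in the control samples and at 23.3% and 24.3% after LPS. It was at 11.8% and 10.8% after IL-4 pretreatment alone and at 28.7% and 29.6% after IL-4 pretreatment and LPS. Non-repeat regions had 14.96% and 14.8%, then 32.4% and 33.0% after LPS. RLTR4_Mm, with 25 members, had p65 at 60% and 68% in the control samples and 56% in both LPS samples, and after IL-4 pretreatment 44% and 40% without LPS and 48% in both samples with LPS. RLTR45 had 5.71% or less in every sample.

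**Figure D5:**
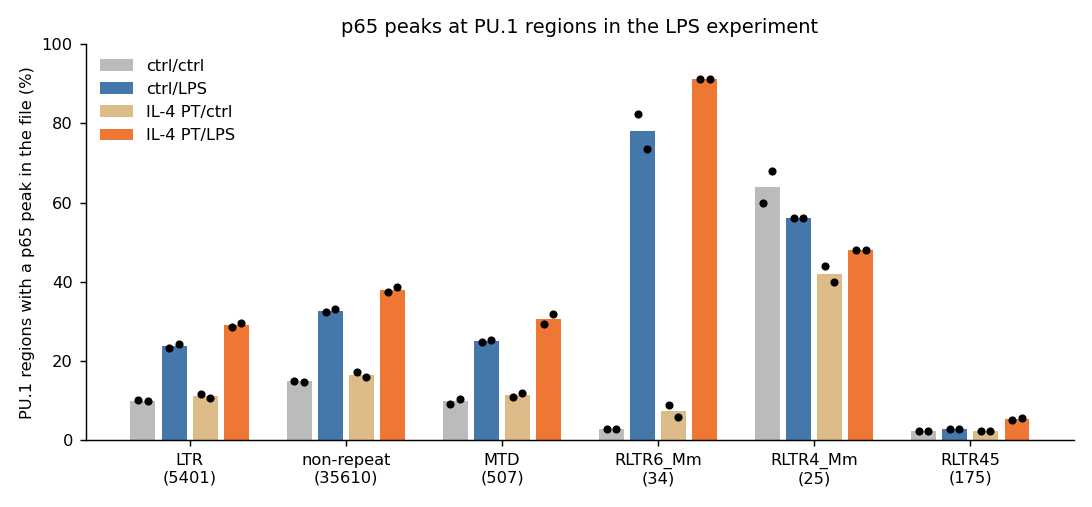
Share of PU.1 regions with a p65 peak (vertical axis, percent) in the LPS experiment, with bars for the mean and points for the 2 samples of each condition, and the number of regions in brackets. Samples with LPS exceed the control samples in all LTR regions, non-repeat regions, MTD, and RLTR6_Mm. In RLTR4_Mm they exceed them only after IL-4 pretreatment.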

How the data were processed

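ChIP-seq of PU.1, p300, HDAC1, HDAC2, HDAC3, and H3K27Ac (2 untreated and 2 IL-4 samples each) and of p65 (8 samples) was analysed from the peak lists. The authors aligned reads to mm10 with default parameters, removed blacklisted regions, called peaks per sample, and annotated them with HOMER, and the submitters' notes name BWA 0.7.10, SAMtools 0.1.19, MACS2 2.0.10, and HOMER 4.2. The deposited score of factor peaks is a MACS2 value on the −log10 scale, and whether it is a p or a q value is not given in the sources used here. For H3K27Ac the authors deposited the HOMER signal of each region. The input control and the handling of reads with several matches are not given in the sources used here. No read counts were analysed, so depth is unknown and no counting interval is given.

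Peaks overlapping by 1 bp or more were merged, and regions in 2 or more of the 4 lists were kept. The highest score of each region was taken, a missing peak was set to the lowest score, log2 values were centred on regions with a peak in all 4 samples, and IL-4 was compared with untreated by limma 3.58.1 (R 4.3.3) with a mean trend and Benjamini-Hochberg adjustment over all regions of an antibody. A region was called at an adjusted p of at most 0.05. The procedure was tested on simulated data. Shares were compared by exact permutation tests. A partner was counted at a region when its peaks met it in 2 or more of 4 lists. Non-repeat regions are those in introns and intergenic DNA that the authors annotated to no repeat.

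Sequences were read with samtools 1.23.1 from the RefSeq GRCm38 genome, in windows of 200 bp around the region's peak centre, and motifs were searched on both strands. Python 3.11.15, pandas 2.3.3, and numpy 2.4.6 were used.

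Named regions were the 5 with the highest mean score, the 5 largest increases and decreases among those with a peak in all 4 samples and no overlap of centred values, the 3 highest in one condition only, and the 3 highest of each gene list. Of these, 1 region is not reported here. Named repeats were the 12 commonest and, among names with 20 or more members, the highest and lowest in median change and p300 share. The members, rules, and lists were chosen with earlier results of these data known. RLTR13B1, RLTR45-int, RLTR13C2, RLTR17, RMER15, RLTR4_Mm, the ETS words, the uniqueness counts, and the STAT6 comparison were chosen after their values were seen. Lists of RNA polymerase II were not used in a comparison here.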

Additional observations from a re-analysis of the deposited data

Results flagged for a closer look

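A signal stood out in the p65 lists, which the IL-4 comparisons do not use. At RLTR6_Mm, an ERV1 repeat name with 34 members, a p65 peak was at 2.94% of members in both control samples and at 82.4% and 73.5% after LPS. The lower LPS sample exceeded the higher control sample by 70.6 percentage points. After IL-4 pretreatment the share was 8.82% and 5.88% without LPS and 91.2% in both samples with LPS. Among the 53 names with 20 or more members it was the only one with a gap above 50 points, and the next, ORR1C1, had a gap of 35.1 points. The mean share of unique 32-base pieces was 4.41% for RLTR6_Mm, so its copies share sequence, and the part of this in the p65 share was not tested.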

How the results depend on the processing

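The adjusted PU.1 count of 3 was 52 with the lowest score set 4 times as high, for missing and weaker peaks alike. It was 40 in regions with a peak in all 4 samples, 45 with the upper 50% of peaks, and 20 with a replicate block. It was 5 with summed scores, 1 with unique pieces only, and 0 without centring or with quantile normalisation, so this count depends on the setting. The median change of all PU.1 regions moved too, from −0.05. It was −0.20 with the lowest score set 4 times as high, −0.11 with the upper 50% of peaks, and 0.28 without centring. The shares of all PU.1 regions called in these settings are not given, so the counts are not a result about LTR elements. The unadjusted count of 594 was 348 with a peak in all 4 samples, 355 with unique pieces only, and 374 with the upper 50% of peaks. Without centring p300 had 0 adjusted and 503 unadjusted calls, and HDAC2 and HDAC3 had 0, as they did with a replicate block. The correlation of deviations between samples of the same number was 0.06 or less for every antibody (PU.1 0.06, p300 0.01). No shared deviation was therefore seen, but noise in the scores could hide one. Whether samples of the same number were paired cannot be told from this.

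The STAT6 motif differences kept their sign in every setting. For PU.1, the difference of 0.90 was 0.43 with a higher floor, 0.45 with a peak in all 4 samples, 0.92 with quantile normalisation, 1.07 with a window of 100 bp, 0.45 with a window of 400 bp, 0.30 with a window of 600 bp, and 0.31 with a spacing of 3 bases. For p300, the difference of 1.39 was 1.85 with a window of 100 bp, 0.98 with a window of 400 bp, 0.61 with a window of 600 bp, and 0.79 with a spacing of 3 bases. For HDAC1, the difference of 0.61 was 0.90 with a window of 100 bp, 0.36 with a window of 600 bp, and 0.32 with a spacing of 3 bases. For HDAC2, the difference of 0.79 was 1.01 with a window of 100 bp, 0.51 with a window of 400 bp, 0.42 with a window of 600 bp, and 0.18 with a spacing of 3 bases. For HDAC3, the difference of 1.12 was 1.41, 0.97, and 0.82 with windows of 100, 400, and 600 bp and 0.44 with a spacing of 3 bases. For H3K27Ac, the difference of 1.16 was 1.42 with a window of 100 bp, 0.82 with a window of 400 bp, 0.55 with a window of 600 bp, and 0.45 with a spacing of 3 bases.

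For p300, LTR minus all other PU.1 regions of 11.4 was 6.37 with a partner peak in all 4 lists, 4.51 with the upper 50% of peaks, 5.33 with the lowest class of 3 by PU.1 score, 20.1 with the middle class, 0.669 with the highest class, 0.905 with unique pieces only, and −3.96 with no LINE regions. For HDAC1, LTR minus all other PU.1 regions of −3.20 was −1.50 with a partner peak in 1 or more lists, −5.35 with the lowest class of 3 by PU.1 score, −11.5 with the highest class, −5.81 with unique pieces only, and −11.5 with no LINE regions. For HDAC2, LTR minus all other PU.1 regions of 0.264 was −0.975 with an overlap of 50%, −0.841 with a partner peak in all 4 lists, 1.14 with a partner peak in 1 or more lists, −0.574 with the upper 50% of peaks, −2.79 with the lowest class of 3 by PU.1 score, 0.895 with the middle class, −8.34 with the highest class, −2.19 with unique pieces only, and −8.16 with no LINE regions. For HDAC3, LTR minus all other PU.1 regions of −1.25 was −1.76 with an overlap of 50%, −0.944 with the middle class, −8.47 with the highest class, −2.77 with unique pieces only, and −5.87 with no LINE regions. For H3K27Ac, LTR minus all other PU.1 regions of 1.39 was −0.0290 with a partner peak in all 4 lists, 2.48 with a partner peak in 1 or more lists, −3.49 with the upper 50% of peaks, −3.23 with the lowest class of 3 by PU.1 score, 2.78 with the middle class, −2.40 with the highest class, −2.16 with unique pieces only, and −7.25 with no LINE regions. For p300, LTR minus non-repeat of −6.33 was −7.84 with a partner peak in all 4 lists, −5.23 with a partner peak in 1 or more lists, −9.79 with the upper 50% of peaks, −12.9 with the lowest class of 3 by PU.1 score, −4.34 with the middle class, −0.373 with the highest class, and 0.601 with unique pieces only. For HDAC1, LTR minus non-repeat of −12.1 was −10.5 with an overlap of 50%, −7.35 with a partner peak in all 4 lists, −13.4 with a partner peak in 1 or more lists, −8.09 with the upper 50% of peaks, −7.39 with the lowest class of 3 by PU.1 score, −9.88 with the middle class, −13.2 with the highest class, and −5.49 with unique pieces only. For HDAC2, LTR minus non-repeat of −10.4 was −7.04 with a partner peak in all 4 lists, −12.1 with a partner peak in 1 or more lists, −7.38 with the upper 50% of peaks, −6.12 with the lowest class of 3 by PU.1 score, −8.37 with the middle class, and −3.37 with unique pieces only. For HDAC3, LTR minus non-repeat of −8.41 was −5.90 with an overlap of 50%, −5.10 with a partner peak in all 4 lists, −10.3 with a partner peak in 1 or more lists, −5.24 with the upper 50% of peaks, −2.94 with the lowest class of 3 by PU.1 score, −5.58 with the middle class, −11.4 with the highest class, and −4.66 with unique pieces only. For H3K27Ac, LTR minus non-repeat of −6.93 was −5.98 with an overlap of 50%, −9.08 with the lowest class of 3 by PU.1 score, −2.73 with the highest class, and −0.963 with unique pieces only.

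The number of LTR regions was 2513 in all 4 lists, 9576 in 1 or more, and 3100 with the upper 50% of peaks, with which the LTR share of PU.1 peaks differed by 0.157 points (IL-4 minus untreated). Against non-repeat regions the motif difference became 4.08 points for the PU.1 core, −0.025 for GGAA, −0.48 for C/EBP, and −3.31 for AP-1. Against all other PU.1 regions the AP-1 difference, 0.40 in a window of 200 bp, was −0.13 in a window of 100 bp.

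Leaving out each replicate in turn gave 584 to 698 for H3K27Ac adjusted calls, 0 to 12 for HDAC1 adjusted calls, 101 to 176 for HDAC2 unadjusted calls, 4 to 14 for HDAC2 adjusted calls, 47 to 194 for HDAC3 unadjusted calls, 0 to 73 for HDAC3 adjusted calls, 0.608 to 1.28 for H3K27Ac, LTR minus all other PU.1 regions, −11.7 to −11.0 for HDAC1, LTR minus non-repeat regions, −0.531 to 0.555 for HDAC2, LTR minus all other PU.1 regions, −10.3 to −8.48 for HDAC2, LTR minus non-repeat regions, −8.20 to −6.86 for HDAC3, LTR minus non-repeat regions, 8.83 to 11.4 for p300, LTR minus all other PU.1 regions, −7.68 to −6.31 for p300, LTR minus non-repeat regions, 341 to 578 for PU.1 unadjusted calls, 4 to 12 for PU.1 adjusted calls, 0.76 to 0.85 for STAT6 motif HDAC1 difference, 0.73 to 0.95 for STAT6 motif PU.1 difference, 1.27 to 1.40 for STAT6 motif p300 difference, 784 to 1669 for p300 unadjusted calls, 389 to 1074 for p300 adjusted calls. The lone sample of an arm is then assumed to vary like the others. The cause of these changes was not tested.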

Other observations

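Members that hold the IRF motif (225) had a median PU.1 change of 0.13 after IL-4, with 21 higher and 5 lower at an unadjusted p of at most 0.05 (limma), where 5.88% of all regions were higher and 4.71% lower. Members with the PU.1 core (1165) had a median change of −0.01, with 51 higher and 51 lower, and those with the AP-1 word (565) 0.01, with 36 higher and 36 lower. Members with the C/EBP word TTGCNNAA (700) had −0.10, with 34 higher and 45 lower. These groups share members and were chosen after the data were seen. The C/EBP word was in 62.3% of RLTR45 copies, against 13.0% of all members.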
